A study of Cavia porcellus with 44 samples.

Results

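A group of 7 genes chosen because their mean liver mRNA differed between guinea pigs switched to a low fat diet with low vitamin C (vitC) and those switched to the same diet with high vitC was followed across all diet groups of the study. The genes were RELL1, NYNRIN, PHLDA1, NEDD4L, ATP4A, MINDY4 and FGD1, which makes 7 of the 11967 gene symbols in the count table and 7 of the 7750 with enough reads to be tested. All 7 passed that filter, a total of at least 200 reads over the 44 animals. They were chosen on the difference between HFL/LFL and HFL/LFH in these same animals, so the values of those 2 groups are given below as a description and carry no test. The open point is where the other 4 groups lie.

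The study used Hartley guinea pigs, a species that, like humans, cannot make vitC. LFH (n = 8) received a low fat feed and HFH (n = 8) a high fat feed, both with high vitC, for 32 weeks. The other animals received a high fat feed low in vitC for 16 weeks and were then assigned to 1 of 4 feeds for the second 16 weeks. HFL/HFL (n = 10) stayed on that feed, HFL/HFH (n = 6) got high vitC on the high fat feed, HFL/LFL (n = 6) went to low fat with low vitC, and HFL/LFH (n = 6) went to low fat with high vitC. The high fat feed also carried sucrose and cholesterol, so fat content alone is not what separated the feeds, and some groups were pair-fed to others. Each library is polyadenylated RNA from the left lateral liver lobe of 1 animal, with 21133807 to 35427724 counted reads (median 25652393). In a piece of whole liver, fewer cells of one type and less RNA per cell cannot be told apart.

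The 7 genes have different tasks. RELL1 encodes a membrane protein related to the tumour necrosis factor receptor RELT. PHLDA1 is a pleckstrin homology-like protein induced early after growth factor and stress signals, and FGD1 is an exchange factor that activates the small GTPase CDC42. NEDD4L is a ubiquitin ligase best known for removing the epithelial sodium channel from the cell surface, whereas MINDY4 belongs to a family of enzymes that trim ubiquitin chains. NYNRIN carries an NYN-type nuclease domain beside a domain of retroviral origin, and ATP4A is the catalytic subunit of the proton pump that acidifies the stomach.

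Levels were expressed as CPM, read counts divided by library size and scaled to a common total, after TMM normalization, which corrects for differences in RNA composition. In 5 of the 7 genes HFL/LFL lay on the high fat side of HFL/LFH: the means of RELL1, PHLDA1 and NEDD4L were higher, and those of NYNRIN and MINDY4 lower, than in HFL/LFH both in HFL/LFL and in each high fat group. HFL/LFL and the high fat groups are here both set against HFL/LFH, whose values helped to choose the genes. The share over all genes was not counted, so the count is a description. In PHLDA1 the mean of HFL/LFL was close to that of LFH, and in RELL1 all HFL/LFL animals were below all HFH and HFL/HFL animals. In ATP4A and FGD1 the lowest mean of all 6 groups was in HFL/LFL, with higher means in every high fat group. For FGD1 each high fat mean also lay above that of HFL/LFH. For ATP4A only HFH did, at 19.3 CPM against 17.96 in HFL/LFH, while HFL/HFH had 17.7 and HFL/HFL 15.9. LFH and HFH differed in all 7 genes, 5 higher and 2 lower in HFH (edgeR quasi-likelihood test, adjusted p at most 0.0466), but the call of PHLDA1 was lost under 4 of 8 alternative settings and in 11 of 16 fits without 1 animal. That feed comparison called 49.3% of all genes tested, 27.5% as higher and 21.8% as lower. With the high fat feed, 0 of the 7 genes passed the same test between low and high vitC, where 0% and 0.129% of all genes tested did in the 2 comparisons, so the count is no more than the background gives.

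**Figure D1:**
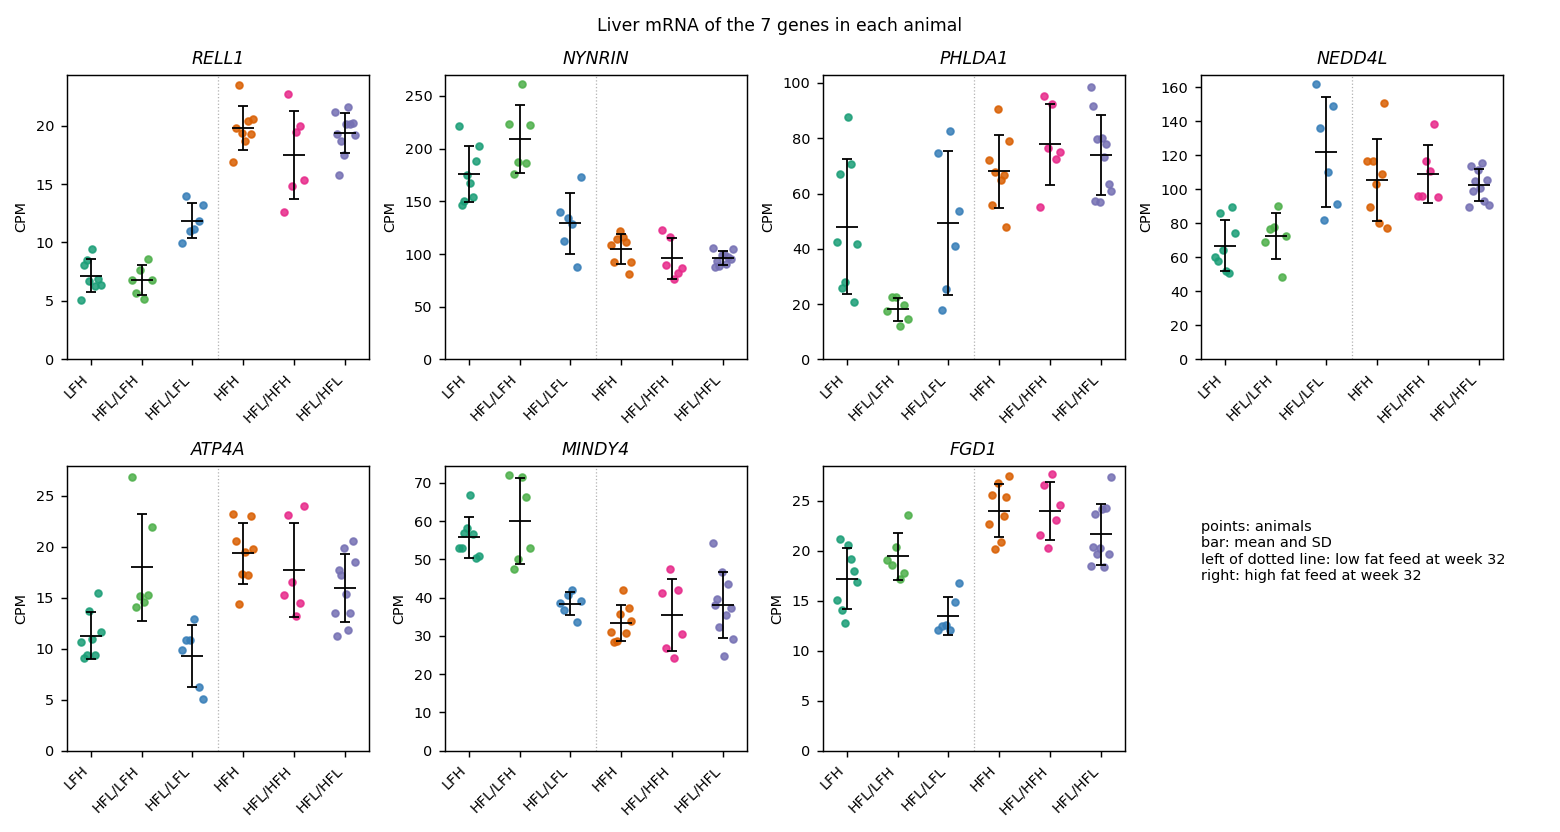
CPM of the 7 genes (y axes, from 0) in each of 44 animals (points) by diet group (x axes), with the mean and SD as bars; the dotted line separates low fat from high fat feed at week 32. RELL1 steps up from HFL/LFH to HFL/LFL to the high fat groups, while ATP4A and FGD1 are lowest in HFL/LFL.

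RELL1 was the member with the largest log2 fold change between LFH and HFH. LFH had from 5.05 to 9.42 CPM (median 6.77) and HFH from 16.9 to 23.4 CPM (median 19.6), with no overlap. The means were 7.16 ± 1.40 CPM (SD, n = 8) in LFH and 19.8 ± 1.86 CPM (n = 8) in HFH, a 2.76-fold difference (95% interval 2.33 to 3.27; log2 fold change 1.47 with an SE of 0.12, edgeR adjusted p = 1.25e-11). By absolute log2 fold change, 15.2% of all genes tested moved more. HFL/HFL had from 15.8 to 21.6 CPM (median 19.7) and HFL/HFH from 12.6 to 22.7 CPM (median 17.4). Both overlapped with HFH, and 3 of 6 HFL/HFH animals and 1 of 10 HFL/HFL animals lay below the lowest HFH animal.

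In RELL1, HFL/LFH did not differ from LFH beyond their spread, at 5.15 to 8.56 CPM (median 6.79). HFL/LFL stood apart at 9.95 to 14.02 CPM (median 11.5). All 6 HFL/LFL animals were above all LFH and all HFL/LFH animals, and all 6 were below every HFH and HFL/HFL animal, so that only HFL/HFH overlapped with them. To place the groups on one scale, log2 CPM was set to 0 at the mean of HFL/LFH and to 1 at the mean of HFL/LFL. On that scale RELL1 lay at 0.0906 ± 0.349 (SD) for LFH, and the high fat groups lay beyond 1, HFH at 1.91 ± 0.165, HFL/HFL at 1.87 ± 0.165 and HFL/HFH at 1.66 ± 0.391.

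The list of RELT and its partners had 6 of 9 genes tested, RELL1 included, with 2 higher and 1 lower in HFH. Besides RELL1 these were TRAF1, an adaptor of tumour necrosis factor receptors (log2 fold change 0.79 with an SE of 0.12, edgeR adjusted p = 3.18e-06), and the stress kinase MAPK14 (log2 fold change -0.42 with an SE of 0.11, edgeR adjusted p = 0.00174). The median log2 fold change of the list was 0.23, where the median over all genes tested was 0.06. OXSR1, a kinase that RELT proteins bind, had a log2 fold change of -0.06 (SE 0.07) with a mean of 58.6 CPM in LFH and 56.1 CPM in HFH.

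PHLDA1 varied widely in LFH and HFL/LFL. LFH ran from 20.8 to 87.5 CPM (median 42.0) and HFL/LFL from 17.9 to 82.7 CPM (median 47.3), while HFL/LFH held all 6 animals between 12.1 and 22.6 CPM (median 18.5). The high fat groups were tighter, with HFH from 47.9 to 90.6 CPM (median 67.2), HFL/HFH from 55.1 to 95.3 CPM (median 75.8) and HFL/HFL from 56.9 to 98.7 CPM (median 75.7). HFL/LFH was below every high fat animal, whereas LFH and HFL/LFL each overlapped with all high fat groups. LFH and HFL/LFL had almost the same mean, 48.0 ± 24.4 and 49.2 ± 26.0 CPM, and LFH stood at 0.995 ± 0.594 on the scale from HFL/LFH to HFL/LFL.

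HFH over LFH in PHLDA1 was 1.42-fold (log2 fold change 0.50 with an SE of 0.21, edgeR adjusted p = 0.0466), close to the threshold of 0.05. The call was lost without any 1 of 11 of the 16 animals, namely LFH 5, 25, 46, 64 and 92 and HFH 1, 6, 9, 14, 18 and 88, with adjusted p from 0.00518 to 0.103 over the 16 fits. It was also lost with RLE normalization (0.0511), without a filter (0.0552), with all 44 animals in the fit (0.0790) and with only the 2 groups in the fit (0.111).

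The list of PHLDA genes and immediate early genes had 11 of 23 tested, of which 8 rose and 1 fell in HFH, PHLDA1 counted among them, with a median log2 fold change of 0.59. EGR3 and EGR2, transcription factors induced early after stimulation, rose by log2 fold changes of 3.10 (SE 0.29, edgeR adjusted p = 2.50e-10) and 2.91 (SE 0.32, edgeR adjusted p = 6.65e-09). Both had few reads in LFH, with means of 0.829 and 0.69 CPM, against 7.15 and 5.25 CPM in HFH. EGR3 had nearly equal means in HFL/LFH and HFL/LFL, 1.03 and 1.09 CPM. For EGR2 these were 2.09 and 1.15 CPM, so that HFL/LFL lay farther from HFH than HFL/LFH did. The HFL/LFH and HFL/LFL means of EGR3, EGR2 and DUSP1 are given without a spread and were not tested. DUSP1, a phosphatase that ends kinase signals, fell by 1.74 on the log2 scale (SE 0.21, edgeR adjusted p = 2.67e-08), with a mean of 590.0 CPM in LFH, 489 in HFL/LFH, 262 in HFL/LFL and 176 in HFH.

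NEDD4L was lowest in the groups on low fat feed with high vitC. LFH ran from 50.7 to 89.5 CPM (median 62.4) and HFL/LFH from 48.6 to 89.9 CPM (median 74.6). HFL/LFL had the highest mean of the 6 groups, 122 ± 32.3 CPM, and the widest range, from 81.7 to 162 CPM (median 123). HFH ran from 77.1 to 151 CPM (median 106), HFL/HFH from 95.2 to 139 CPM (median 103) and HFL/HFL from 89.9 to 115 CPM (median 103). LFH did not overlap with HFL/HFH or HFL/HFL but did with HFH.

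In NEDD4L the high fat groups lay between HFL/LFH and HFL/LFL, at 0.733 ± 0.440 for HFH, 0.822 ± 0.297 for HFL/HFH and 0.712 ± 0.181 for HFL/HFL, and LFH lay at -0.166 ± 0.430. HFH was 1.58-fold above LFH (95% interval 1.32 to 1.88; log2 fold change 0.66 with an SE of 0.13, edgeR adjusted p = 5.56e-05). Of the NEDD4 family ligases with their adaptors and regulators, 6 of 16 were tested and 4 rose in HFH, with a median log2 fold change of 0.34. Apart from NEDD4L, the 2 with the smallest p were its paralogue NEDD4 (log2 fold change 1.07 with an SE of 0.20, edgeR adjusted p = 4.58e-05), with mean levels of 13.7 CPM for HFL/LFL against 12.6 for HFL/LFH, and SMURF1, a ligase of the transforming growth factor pathway (log2 fold change 0.36 with an SE of 0.09, edgeR adjusted p = 0.000792), with 73.8 and 66.8 CPM. Of 4 tested genes for NEDD4L substrates (median log2 fold change 0.06), the amino acid transporter SLC38A2 fell by 0.62 on the log2 scale in HFH (edgeR adjusted p = 0.0110) and the other 3 did not pass.

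MINDY4 was low in every high fat group and in HFL/LFL. LFH ran from 50.5 to 66.9 CPM (median 54.8) and HFH from 28.5 to 41.9 CPM (median 32.4), with no overlap. HFL/LFL overlapped with HFH and ran from 33.8 to 42.0 CPM (median 38.8), below all LFH and all HFL/LFH animals, the latter at 47.4 to 72.1 CPM (median 59.6). HFL/HFH ran from 24.3 to 47.4 CPM (median 35.9) and HFL/HFL from 24.7 to 54.4 CPM (median 37.6), so that HFL/LFL lay inside the range of both. The means were 55.8 ± 5.33 CPM in LFH, 33.4 ± 4.68 CPM in HFH and 38.5 ± 2.92 CPM in HFL/LFL. HFH was 0.600-fold of LFH (log2 fold change -0.74 with an SE of 0.14, edgeR adjusted p = 3.36e-05), and LFH stood at 0.144 ± 0.212 on the scale, whereas HFH stood at 1.34 ± 0.315, HFL/HFL at 1.07 ± 0.531 and HFL/HFH at 1.26 ± 0.631. Of 4 tested genes for MINDY enzymes and other chain-directed deubiquitinases (median log2 fold change -0.29), 2 fell, MINDY4 and the proteasome subunit PSMD14 (log2 fold change -0.45 with an SE of 0.11, edgeR adjusted p = 0.00134).

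NYNRIN was likewise high in LFH and HFL/LFH and low with the high fat feed. LFH ran from 147 to 221 CPM (median 171) and HFH from 81.5 to 122 CPM (median 109.9), again with no overlap. HFL/LFH was highest at 176 to 261 CPM (median 205), and HFL/LFL ran from 87.3 to 173 CPM (median 131), below HFL/LFH in all 6 animals but overlapping with LFH and with each high fat group. HFL/HFH ran from 76.0 to 123 CPM (median 88.4) and HFL/HFL from 87.8 to 106 CPM (median 96.0). HFH was 0.596-fold of LFH (log2 fold change -0.75 with an SE of 0.10, edgeR adjusted p = 2.40e-07). On the scale, LFH stood at 0.356 ± 0.299, HFH at 1.40 ± 0.286, HFL/HFL at 1.55 ± 0.131 and HFL/HFH at 1.59 ± 0.393. In the list of NYN domain nucleases (median log2 fold change 0.17), 5 were tested, NYNRIN fell and 2 rose: ZC3H12A, which degrades inflammatory mRNAs (log2 fold change 0.87 with an SE of 0.17, edgeR adjusted p = 6.32e-05), and ZC3H12C (log2 fold change 1.11 with an SE of 0.30, edgeR adjusted p = 0.00243).

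FGD1 was lowest in HFL/LFL, at 12.03 to 16.7 CPM (median 12.6), and highest with the high fat feed. LFH ran from 12.8 to 21.2 CPM (median 17.4) and HFL/LFH from 17.2 to 23.6 CPM (median 18.8). HFH ran from 20.2 to 27.5 CPM (median 24.4), HFL/HFH from 20.3 to 27.7 CPM (median 23.8) and HFL/HFL from 18.4 to 27.4 CPM (median 20.4), all above every HFL/LFL animal. The rise from LFH to HFH was 1.40-fold (log2 fold change 0.48 with an SE of 0.11, edgeR adjusted p = 0.000398), while HFL/LFL over HFL/LFH had a log2 fold change of -0.53. The high fat groups therefore lay beyond HFL/LFH on the side away from HFL/LFL, at -0.576 ± 0.309 for HFH, -0.568 ± 0.327 for HFL/HFH and -0.283 ± 0.369 for HFL/HFL, with LFH between the ends at 0.355 ± 0.495.

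The list of FGD factors, CDC42 and its effectors had 12 of 24 genes tested, with 7 higher and 1 lower in HFH, FGD1 included, and a median log2 fold change of 0.35. CDC42EP1, an effector that binds CDC42, rose by a log2 fold change of 1.67 (SE 0.16, edgeR adjusted p = 5.20e-10), and CDC42 itself by 0.56 (SE 0.10, edgeR adjusted p = 1.55e-05). FGD4, a paralogue of FGD1, went the other way (log2 fold change -0.72 with an SE of 0.08, edgeR adjusted p = 2.46e-09), with a mean of 88.4 CPM in LFH, 90.4 in HFL/LFH, 97.6 in HFL/LFL and 53.6 in HFH.

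ATP4A was also lowest in HFL/LFL, which ran from 5.09 to 12.9 CPM (median 10.3), and LFH, the next lowest group, from 9.07 to 15.5 CPM (median 10.8). HFL/LFH ran from 14.04 to 26.8 CPM (median 15.2), HFH from 14.3 to 23.2 CPM (median 19.6), HFL/HFH from 13.2 to 24.0 CPM (median 15.9) and HFL/HFL from 11.3 to 20.5 CPM (median 16.3). No HFL/LFL animal reached the lowest HFL/LFH, HFH or HFL/HFH animal. HFH was 1.72-fold above LFH (95% interval 1.39 to 2.12; log2 fold change 0.78 with an SE of 0.15, edgeR adjusted p = 5.88e-05). HFL/LFH, on low fat feed with high vitC as LFH was, had a mean of 17.96 ± 5.21 CPM against 11.3 ± 2.27 CPM in LFH, and LFH stood at 0.665 ± 0.281 on the scale, nearer HFL/LFL, whereas the high fat groups lay at -0.139 ± 0.237 to 0.161 ± 0.316, near HFL/LFH.

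The partner of ATP4A was nearly without reads in these livers. ATP4B, the subunit that ATP4A needs to reach the membrane, had reads in 1 of 44 animals, at 0.0834 CPM, and the stomach genes GKN1 and GKN2 had reads in 0 and 2 animals. CBLIF, the intrinsic factor gene of the stomach, had reads in 28 animals, at up to 0.86 CPM. KCNE2, a potassium channel subunit active in acid secretion, ran from 3.56 to 9.93 CPM. Of 8 tested P2C-type ATPases and subunits (median log2 fold change 0.18), 2 rose and 1 fell in HFH: ATP4A, the sodium pump regulator FXYD2 (log2 fold change 2.22 with an SE of 0.52, edgeR adjusted p = 0.000576) and FXYD6 (log2 fold change -0.46 with an SE of 0.17, edgeR adjusted p = 0.0212).

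**Figure D2:**
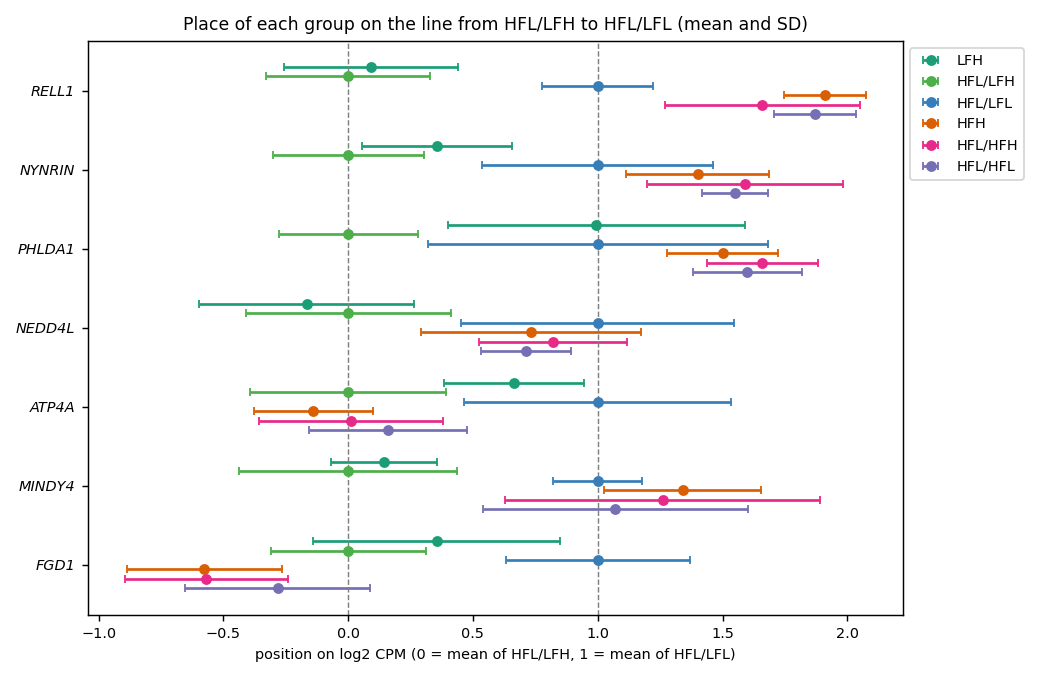
Mean and SD of each group on the line from HFL/LFH (0) to HFL/LFL (1) in log2 CPM (x axis) for the 7 genes (y axis). High fat groups lie at or beyond 1 for RELL1, NYNRIN, PHLDA1 and MINDY4, between 0.712 and 0.822 for NEDD4L, and near or below 0 for ATP4A and FGD1.

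Ordered by mean log2 CPM, 9 of the 35 neighbouring pairs of groups differed by more than the larger of their SDs, and the other 26 did not. All but 1 of the 9, LFH to HFL/HFL in ATP4A, involve HFL/LFL or HFL/LFH, whose values chose the genes, so the count is a description. From the lower to the higher group, these were LFH to HFL/LFL and HFL/LFL to HFL/HFH in RELL1, HFL/LFL to LFH and LFH to HFL/LFH in NYNRIN, and HFL/LFL to LFH in MINDY4 and in FGD1. The others were HFL/LFH to LFH in PHLDA1, HFL/LFH to HFL/HFL in NEDD4L and LFH to HFL/HFL in ATP4A. Only LFH to HFL/LFL in RELL1 and HFL/LFL to LFH in MINDY4 had no overlap. The order of the 6 groups did not change in any of the 7 genes when the deposited variance-stabilized values were used. In the fit of all 44 animals, HFL/LFL over HFL/LFH called 0.219% of the genes tested, and 0.503% of genes had no overlap between these groups, as 5 of the 7 members had. These values follow from the choice of the genes and nothing is read from them. Between HFH and LFH, 3 of the 7 did not overlap (RELL1, NYNRIN and MINDY4), where 16.9% of all genes did not.

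VitC was then compared within the high fat feed, which the choice of the genes did not use. HFL/HFL and HFL/HFH differed in vitC during the second 16 weeks. Of the 7750 genes, 0 were called (0%), 286 had an unadjusted p under 0.05 with edgeR, 359 with DESeq2 and 508 with limma voom and sample quality weights, and 0 of the 7 members passed. The largest log2 fold changes among the members were -0.16 for ATP4A (95% interval -0.47 to 0.15), -0.15 for FGD1 (95% interval -0.37 to 0.08) and 0.15 for RELL1 (95% interval -0.10 to 0.39). NYNRIN had 0.01 (95% interval -0.20 to 0.22), and its sign turned in 7 of the 16 fits that each left out 1 animal.

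In the 8 gene lists given with the members, 0 genes were called in either vitC comparison. HFL/HFL and HFH differed in vitC over all 32 weeks. They did not differ in vitC alone. The paper reports that HFH animals took in more energy than HFL animals before the diet change and were the heaviest group afterwards. The part of intake and weight in this comparison was not tested. Here 0.129% of genes, 10 in number, were called and again 0 of the 7. That count ran from 0 to 482 under the alternative settings and from 0 (for example without HFH 18) to 103 (without HFH 88) on leaving out 1 animal, with 0 members called in each. ATP4A had the largest difference, 15.9 ± 3.32 CPM in HFL/HFL (n = 10) and 19.3 ± 3.003 CPM in HFH (n = 8), a log2 fold change of -0.28 (95% interval -0.56 to 0.01, edgeR adjusted p = 0.287). FGD1 had -0.15 (95% interval -0.36 to 0.06), MINDY4 0.19 (95% interval -0.07 to 0.45) and PHLDA1 0.12 (95% interval -0.29 to 0.53).

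All 14 intervals of these 7 genes in the 2 vitC comparisons held 0. As a description, the log2 fold change between HFL/LFL and HFL/LFH was 1.44 for PHLDA1 and 0.80 for RELL1. Since the genes were chosen for the size of that difference, nothing is read from setting it beside the high fat intervals, and the difference between the feeds was not tested.

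**Figure D3:**
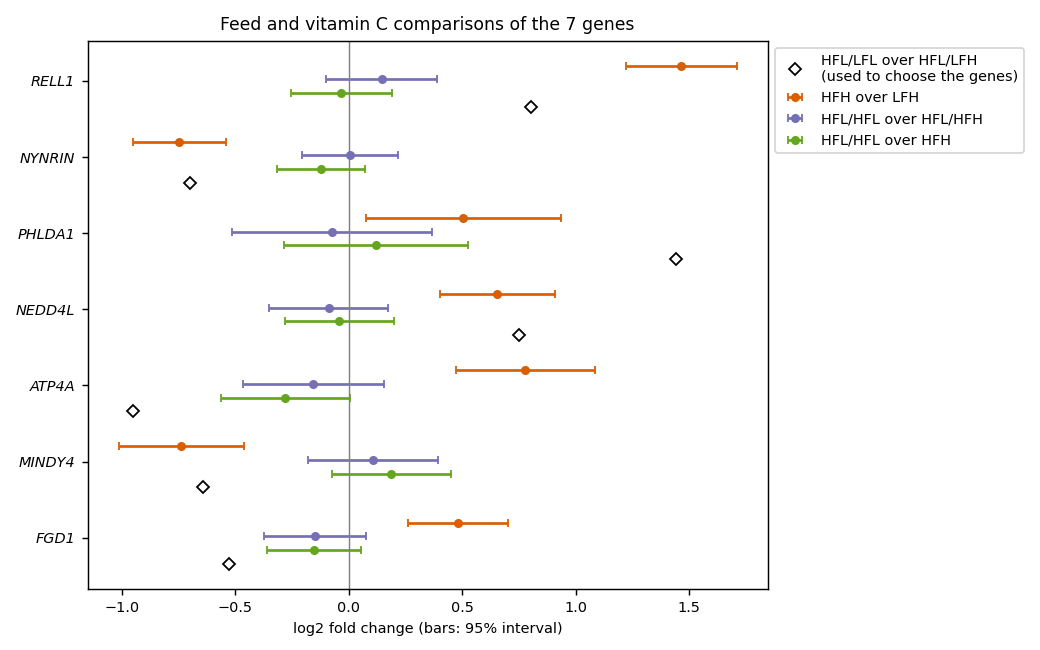
Log2 fold change (x axis) of the 7 genes (y axis) for HFH over LFH and the vitC comparisons with the high fat feed, with 95% intervals, and for HFL/LFL over HFL/LFH as open diamonds without an interval. All 14 vitC intervals cross 0, and ATP4A and FGD1 have a diamond on the other side of 0 from HFH over LFH.

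**Figure D4:**
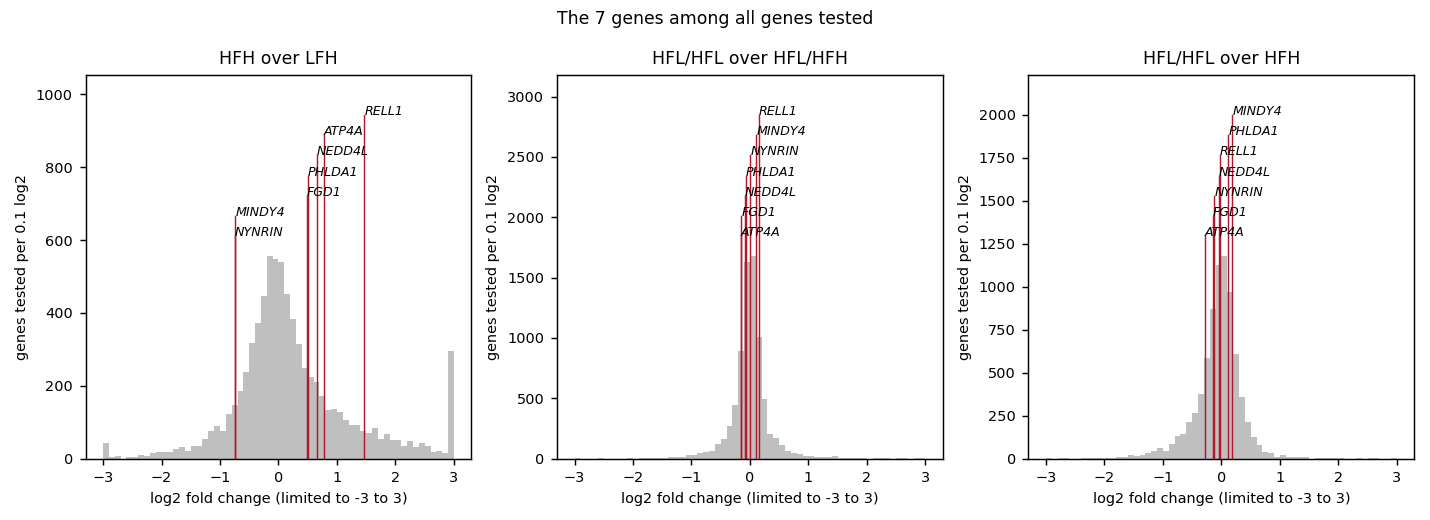
Number of genes (y axes) per 0.1 log2 fold change (x axes, values beyond -3 or 3 set to those ends) among the 7750 tested, for each of the 3 comparisons, with the 7 genes as red lines. The 7 lie within the bulk of genes in both vitC comparisons, and RELL1 lies farthest out in HFH over LFH.

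Genes whose levels followed each member most closely were sought among the 6166 genes tested whose mean reached 1 CPM, by Pearson's r of log2 CPM over 44 animals. The animals share the feeds, so r is also given after removing group means in the 32 animals not used to choose the members. RELL1 ran closest to PLXNA1 (r = 0.944, 0.606 within groups), CLEC7A (0.941, 0.588) and ANXA5 (0.928, 0.544), and 5.89% of the genes had an r of at least 0.8 with it. MINDY4 was nearest to STX4 (0.878, 0.833), STARD10 (0.870, 0.856) and PFKFB1 (0.869, 0.794), the highest within-group values of any member. For NYNRIN these were PNPLA7 (0.874, 0.614), TMEM17 (0.872, 0.277) and DHCR7 (0.855, 0.593).

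The remaining 4 members had no gene with an r of at least 0.8. With the value within groups given second, PHLDA1 was nearest to LGALS2 (0.787, 0.423), LAX1 (0.761, 0.356) and the cholesterol transporter ABCG1 (0.759, 0.525). Among the genes nearest to NEDD4L were AEN (0.738, 0.453) and FLOT2 (0.737, 0.244). ATP4A was nearest to GPC1 (0.720, 0.317), POLA2 (0.668, 0.507, with the same counts as another symbol) and PDYN (0.666, 0.135), and FGD1 to RNASEH2B (0.782, 0.525), NOSTRIN (0.770, 0.472) and FAM83B (0.767, 0.556).

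Pairs of members were also compared between animals of the same group. Over 32 animals and 21 pairs, with group means removed, 9 correlations were positive and 0 of 21 had an adjusted p under 0.05 in a permutation test within groups. The strongest was PHLDA1 with NEDD4L, which ran in opposite directions (Pearson's r = -0.556, permutation p = 0.0048, adjusted p = 0.101; Spearman's rho = -0.416, permutation p = 0.0361), and r was -0.42 without LFH 27 and LFH 46. Within LFH, animal 46 had the lowest PHLDA1 and the highest NEDD4L, whereas animal 27 had the highest PHLDA1. RELL1 with NYNRIN had r = -0.51 (permutation p = 0.0169, adjusted p = 0.122; rho = -0.429, p = 0.0378), and -0.306 without the 2 animals farthest from the median.

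**Figure D5:**
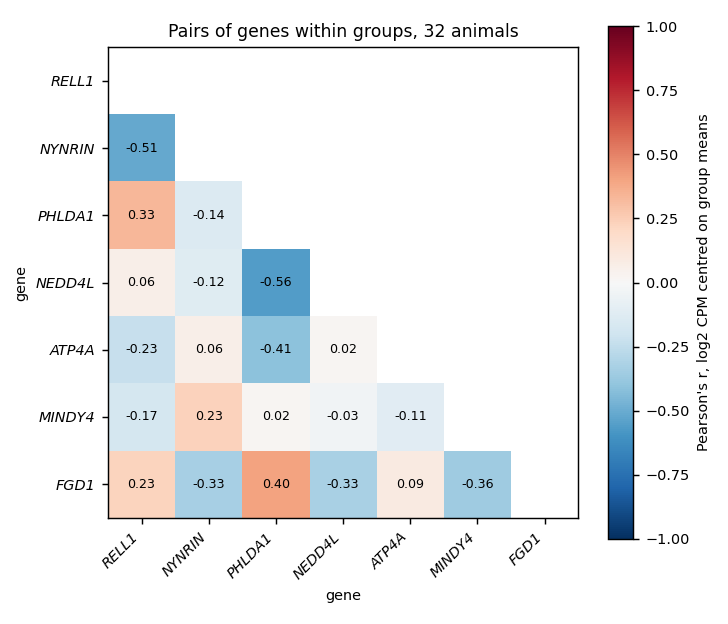
Pearson's r of log2 CPM after removing group means, for the 21 pairs of the 7 genes (both axes) in 32 animals; blue is negative and red positive. The strongest pair is PHLDA1 with NEDD4L at -0.556, and no pair passed adjustment.

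Cell type markers moved with feed beside the members. All 4 hepatocyte markers in the table, of 10 listed, were lower in HFH than in LFH (ALB, SERPINA1, AHSG and ASGR1), with a summed level of 27100 to 96500 CPM in HFH and 110000 to 232000 CPM in LFH. All 3 cholangiocyte markers, of 6 listed, were higher (683 to 1270 against 145 to 380 CPM), as were 2 of 3 stellate cell markers (363 to 1310 against 202 to 481 CPM), while the sum of 5 macrophage markers was 432 to 908 against 761 to 1690 CPM with TREM2 higher and CD5L and C1QA lower. The 6 T cell markers summed to 55.7 to 108 CPM in HFH and 163 to 236 CPM in LFH, with CD3E and CD3G lower and the others not called. CD3E made up most of that sum, with a median of 76.3 CPM in HFH and 175 in LFH. Of 5 endothelial markers in the table LYVE1 was lower (log2 fold change -1.86) and VWF higher, with sums of 511 to 675 against 667 to 914 CPM. Of 5 neutrophil markers 0 were called. Neutrophil markers summed to 11.9 to 42.5 CPM in HFL/LFL, against 4.76 to 20.2 in HFL/LFH, and macrophage markers to 812 to 1780 and 533 to 1250 CPM. Stellate cell markers summed to 330 to 569 CPM in HFL/LFL, against 177 to 419 in HFL/LFH. Medians there were 196 and 75.4 CPM for ACTA2, which was not called in HFH over LFH. For the 2 called, they were 191 and 164 CPM (LUM) and 41.6 and 29.4 CPM (PDGFRB). T cell markers summed to 75.9 to 234 (median 128) in HFL/LFL, against 153 to 204 (median 171) in HFL/LFH. Most of this was CD3E (medians 103 and 146). Medians of LCK, CD2 and CD5 were higher in HFL/LFL, and those of CD3D and CD3G lower. For hepatocyte markers these sums were 82200 to 182000 and 75000 to 211000 CPM, for cholangiocyte markers 105 to 323 and 118 to 386 CPM, and for endothelial markers 711 to 889 and 583 to 858 CPM. All of these ranges overlapped. No listed marker of these types that was in the table stood at 0 in all animals. The part of these shifts in the values of the 7 genes was not tested.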

How the data were processed

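Libraries were made from polyadenylated liver RNA; no strand setting is stated, so antisense reads cannot be told apart. Per the submitters' notes and methods, reads were trimmed (Trimmomatic 0.38.0), aligned with HISAT2 2.1.0, and assembled and quantified with StringTie 2.1.1 on the guinea pig annotation. How its output became whole-number counts is not given in the sources used here. The authors deposited raw counts per gene symbol and a second table of DESeq2 variance-stabilized values, in log2 units. Groups came from the labels, and each animal is 1 replicate. The 7 genes and all lists were chosen with earlier results of these data known.

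Genes with a total of at least 200 were tested with edgeR 4.0.16 (quasi-likelihood, TMM; R 4.3.3) on 32 animals in 4 groups, leaving out the 12 used to choose the genes, for 3 comparisons, with Benjamini-Hochberg adjustment over 7750 genes. Log2 CPM used a prior count of 2. Correlations used 100000 permutations. For each member the 3 genes with the highest r are named, and from each list up to 3 called genes with the smallest p, except for an item that is not reported here; OXSR1, ATP4B, KCNE2, CBLIF, GKN1, GKN2 and the markers were named after their values were seen. The fit was tested on simulated data. Alternatives were RLE, filterByExpr, no filter, other sets of animals, DESeq2 1.42.0, limma 3.58.1 voom with sample quality weights, the deposited log2 values, and leaving out each animal. No sequences were at hand.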

Additional observations from a re-analysis of the deposited data

How the results depend on the processing

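The HFH over LFH calls of RELL1, NYNRIN, NEDD4L, ATP4A, MINDY4 and FGD1 held under all 8 alternatives and in all 16 fits without 1 animal, and PHLDA1 kept its call in 4 of 8 and 5 of 16. The members called there numbered 6 to 7. Genes called in HFL/HFL over HFL/HFH numbered 1 with all 44 animals in the fit, and 0 to 1 without 1 animal. Genes called in HFL/HFL over HFH, 10 in the reported fit, numbered 1 without a filter, 21 with all 44 animals, 0 with only the 2 groups, 160 with DESeq2, 482 with limma voom and sample quality weights, 18 with limma on the deposited log2 values, and 0 to 103 without 1 animal (103 without HFH 88); no member was among them under any of these, and the cause was not tested. Without 1 animal, the log2 fold change of RELL1 in HFL/HFL over HFH was -0.0619 to 0.00613 (above 0 without HFH 1), that of NEDD4L -0.0960 to 0.0502 (above 0 without HFH 47), and that of NYNRIN in HFL/HFL over HFL/HFH -0.0512 to 0.0920. Positions moved by less than 1 SD on the deposited log2 values. No paired analysis was possible because the numbers name animals and no number is shared between groups. With 6 to 10 animals a group, small vitC differences in the 7 genes cannot be told from the spread. Dixon's test, which sets the gap beside the lowest or highest animal against the range, flagged 0 of 42 sets of member values. In groups of 6 to 10 animals it finds only large gaps. It can also miss animals that lie far out together.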
